A study of Mus musculus with 24 samples.

Results

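The secreted factors FGF21 and GDF15 and the proteins that receive them were followed in mice that lack Crif1 in the liver. The genes are 9 in number: the ligands Fgf21 and Gdf15, the co-receptor Klb, the receptor tyrosine kinases Fgfr1, Fgfr2, Fgfr3 and Fgfr4, and the GDF15 receptor pair Gfral and Ret. They were chosen by their symbols, and all 9 were found among the 24532 genes of the deposited expression table. LKO mice carried Alb-Cre and Crif1flox/flox alleles, and Ctrl mice carried the same Crif1flox/flox alleles without Cre. In Alb-Cre mice the albumin promoter drives the recombinase, so deletion is directed to hepatocytes. All mice were C57BL/6 and 8 weeks old, and RNA was sequenced from liver, inguinal white adipose tissue (iWAT), gastrocnemius muscle (GM) and hypothalamus, with 3 Ctrl and 3 LKO libraries for each tissue and 24 in all. Whether 1 animal gave all 4 tissues is not in the labels, nor is it stated that the 3 libraries of a group were separate animals, so p-values measure the spread between these libraries. Levels are given in FPKM, which counts fragments relative to transcript length and library depth, so that genes can be set side by side.

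FGF21 is an endocrine member of the fibroblast growth factor family that is secreted mainly by the liver. It does not bind FGF receptors firmly on its own: it engages β-klotho, the product of Klb, which is held beside an FGF receptor, most often a splice form of FGFR1, and adipose tissue is its best known target. β-klotho also pairs with FGFR4 in hepatocytes, where the gut hormone FGF15 uses the pair to repress bile acid synthesis. GDF15 is a distant relative of the TGF-β family that is induced by many cellular stresses. It binds GFRAL, a GDNF-family receptor made by a small set of hindbrain neurons, and GFRAL signals through the receptor tyrosine kinase RET.

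Among the members, only Fgf21 and Gdf15 were called different between LKO and Ctrl livers in the main test, so the sequences around their transcription starts are shown first. RefSeq promoter windows on GRCm38.p6, from 250 bases before the start to 50 bases after it, were found for 7 of the 9 members. Each sequence is read 5′ to 3′ on the gene's own strand. Fgf21 lies on the minus strand of chromosome 7 (45613890 to 45615490) and its window is chr7:45615441-45615740. Gdf15 lies on the minus strand of chromosome 8 (70629393 to 70632456) and has 2 annotated starts, with windows chr8:70632407-70632706 for the upstream start and chr8:70632046-70632345 for the downstream start. In the Fgf21 window the capitals mark a match to the C/EBP-ATF composite motif and a TATA box.
Fgf21: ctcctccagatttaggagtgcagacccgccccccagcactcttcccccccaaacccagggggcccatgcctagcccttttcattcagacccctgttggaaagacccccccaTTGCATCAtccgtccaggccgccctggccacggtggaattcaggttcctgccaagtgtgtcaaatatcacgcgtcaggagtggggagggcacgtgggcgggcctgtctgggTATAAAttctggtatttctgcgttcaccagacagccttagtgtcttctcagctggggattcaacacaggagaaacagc
Gdf15 upstream start: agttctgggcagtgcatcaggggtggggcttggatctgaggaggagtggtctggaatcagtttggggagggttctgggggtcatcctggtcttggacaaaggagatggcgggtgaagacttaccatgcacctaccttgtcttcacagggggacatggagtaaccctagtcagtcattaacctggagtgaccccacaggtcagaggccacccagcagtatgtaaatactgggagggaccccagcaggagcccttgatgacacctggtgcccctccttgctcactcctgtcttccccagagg
Gdf15 downstream start: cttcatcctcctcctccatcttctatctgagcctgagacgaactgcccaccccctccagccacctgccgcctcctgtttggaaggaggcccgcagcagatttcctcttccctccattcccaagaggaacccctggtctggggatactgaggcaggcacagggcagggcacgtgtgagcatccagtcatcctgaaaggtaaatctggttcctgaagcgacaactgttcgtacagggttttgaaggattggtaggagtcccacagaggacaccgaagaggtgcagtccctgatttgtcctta

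The windows were searched on both strands for 7 short motifs: TGATGNAA, the composite element bound by C/EBP and ATF factors (present in 3.97% of 32851 RefSeq windows of the same length), TGACGTCA, the cAMP response element (1.79%), CACGTG, the E-box (7.15%), GCGNGGGCG, bound by EGR1 (5.55%), TATAAA, the TATA box (13.6%), CCAAT (37.4%) and GGGCGG, the GC box (35.7%). The Fgf21 window held TTGCATCA, the composite element read on the opposite strand, with its first base 139 bases before the start. It also held a TATA box whose first base lay 28 bases before the start, an E-box at 50 bases before it and 3 GC boxes, of which 1 overlapped the E-box. In the window of the upstream Gdf15 start none of the 7 motifs was found. The window of the downstream start held an E-box, with its first base 83 bases before the start, and a CCAAT box. The motifs mark matching letters only, and none of the libraries measured binding of a factor.

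Crif1 itself (Gadd45gip1, chromosome 8, 84832282 to 84835482) was read first as a check of the labels. Ctrl livers held 14.6, 12.5 and 13.6 FPKM of it, and LKO livers 5.40, 2.0 and 2.51 FPKM, so that the log2 difference was -1.84 with a standard error of 0.27 (limma, adjusted p = 0.0036). The library LKO 1 kept the most Crif1 reads. In iWAT, GM and hypothalamus the Crif1 groups overlapped. Hepatocyte, adipocyte, myofibre and hypothalamic neuron markers were abundant in the tissues they define, with all 6 hepatocyte markers summing to 42216 to 67742 FPKM in liver. The libraries of a group correlated with each other at Pearson's r of 0.983 or more on log2(FPKM + 1). Several libraries carried markers of other tissue: 2 LKO iWAT libraries held epithelial keratins, 2 iWAT libraries held myofibre transcripts, the GM libraries differed in adipocyte and hepatocyte markers, and the LKO hypothalamus libraries held more pituitary transcripts. Of 18 marker lists, the summed level of 9 was higher in all LKO than in all Ctrl livers and that of 1 lower; the counts were 5 and 0 in iWAT, 1 and 1 in GM, and 3 and 3 in hypothalamus. Values are given beside the genes they touch. In bulk tissue, fewer cells of a type and less RNA per cell cannot be told apart.

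The first question was how far the deletion changed the 2 ligands in the tissue where it was made. Ctrl livers held 0.281, 1.65 and 0.588 FPKM of Fgf21, and LKO livers 14.2, 66.4 and 37.5 FPKM. Every LKO liver was above every Ctrl liver, and the lowest LKO value came from the library with the most residual Crif1. The group means were 0.841 ± 0.720 and 39.4 ± 26.2 FPKM (SD, n = 3), a ratio of 46.8. This ratio rests on low Ctrl values: without Ctrl 2, the highest of them, it was 90.6, without LKO 2 it was 30.7, and without any other single liver it lay between 35.1 and 61.8. On log2(FPKM + 1), which understates the change of low genes, the difference was 4.28 with a standard error of 0.53 (limma with Benjamini-Hochberg adjustment over 10956 genes, adjusted p = 0.0020). Only 1 Ctrl liver reached 1 FPKM, so the gene met the filter mainly through the LKO livers; with no filter the adjusted p was 0.0069.

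Of Gdf15, Ctrl livers held 2.73, 3.67 and 2.96 FPKM, and LKO livers 19.5, 44.9 and 55.0 FPKM. The groups did not overlap, and the same library, LKO 1, was again the lowest of the LKO livers. The means were 3.12 ± 0.49 and 39.8 ± 18.3 FPKM (SD, n = 3), a ratio of 12.8 and a log2 difference of 3.19 with a standard error of 0.35 (limma, adjusted p = 0.0015). The mean levels of the 2 ligands were thus close to each other in LKO liver and unlike in Ctrl liver. The ratio of Fgf21 to Gdf15 within a library was 0.103, 0.451 and 0.199 in Ctrl livers and 0.728, 1.48 and 0.682 in LKO livers, without overlap. The log2 difference of this ratio was 2.11 (exact two-sided permutation test, p = 0.1, the smallest p that 3 libraries against 3 allow). The ratio was chosen after its values were seen.

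**Figure D1:**
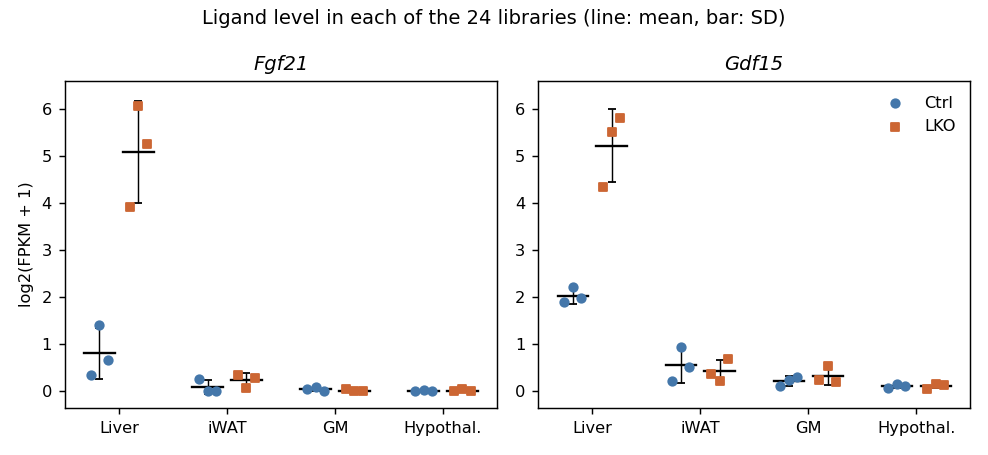
Fgf21 and Gdf15 on log2(FPKM + 1) in each library, by tissue, with Ctrl as circles and LKO as squares; the horizontal line is the group mean and the bar its SD. In liver the 3 LKO libraries lie above the 3 Ctrl libraries for both genes, and in the other tissues every library lies below 1.

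Outside the liver both ligands were near the lower end of what the libraries could measure. In iWAT, Fgf21 was 0.199, 0 and 0 FPKM in Ctrl and 0.281, 0.0446 and 0.217 FPKM in LKO. In GM its values ran from 0 to 0.0677 FPKM, and in hypothalamus from 0 to 0.0346 FPKM. Gdf15 was 0.159, 0.937 and 0.433 FPKM in Ctrl iWAT and 0.294, 0.164 and 0.614 FPKM in LKO iWAT, with overlapping groups. It lay between 0.0819 and 0.463 FPKM in GM and between 0.0427 and 0.119 FPKM in hypothalamus. Neither ligand reached 1 FPKM in 3 libraries of any of these tissues, so neither was tested there.

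Whether the LKO effect differed between the 4 tissues was tested for all 24 libraries in 1 model. For Fgf21 the iWAT effect was lower than the liver effect by a log2 difference of -4.13 (SE 0.46), the GM effect by -4.31 (SE 0.46) and the hypothalamus effect by -4.27 (SE 0.46). For Gdf15 the same differences were -3.33, -3.09 and -3.19 (SE 0.35 each). The F test over the 3 interaction terms gave limma adjusted p = 2.28e-06 for Fgf21 and 2.36e-06 for Gdf15, where 33.5% of all 15849 genes tested passed. Fgf21 reached 1 FPKM in 4 of the 24 libraries, 3 of them LKO livers, and so entered this fit mainly through the group where it is high; with no filter the values were 6.95e-06 and 7.08e-06. The terms for the other tissues rest on levels under 1 FPKM, where log2(FPKM + 1) compresses any change. The fit also takes 1 spread per gene from all 24 libraries, and for both ligands the values near 0 outside the liver lower it. For Fgf21 the SE of a difference between 2 effects, 0.46, was below that of the liver effect in the liver fit, 0.53. The interaction p-values of the ligands thus draw precision from values near 0.

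Over the whole set, liver had 7 of the 9 members that could be tested, iWAT 5, and GM and hypothalamus 4 each, since a gene had to reach 1 FPKM in 3 of the 6 libraries. A member was called where its adjusted p was under 0.05 and its change at least 1.5-fold. In liver 2 members were called, both ligands, in a tissue where 27.4% of the genes tested were called; by the unadjusted p with the same fold limit there were also 2, against 28.9% of genes. The LKO and Ctrl livers did not overlap for 3 members, Fgf21, Gdf15 and Klb, against 61.1% of genes. In iWAT no member was called by limma, and 0% of genes were. The unadjusted p and fold limit took 1 member, Fgfr3, against 3.25% of genes, and the same member did not overlap, against 20.8%; it met the filter through the LKO libraries alone, so neither count is support. In GM no member was called, as was no other gene (0%), and none passed the unadjusted p with the fold limit (0.901% of genes). Fgfr1, which did not overlap in GM, had an unadjusted p under 0.05 there without that fold, and 11.6% of genes did not overlap. In hypothalamus no member was called (0.0217% of genes), none passed the unadjusted p with the fold limit (0.333%), none had an unadjusted p under 0.05, and none was free of overlap (9.70%).

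**Figure D2:**
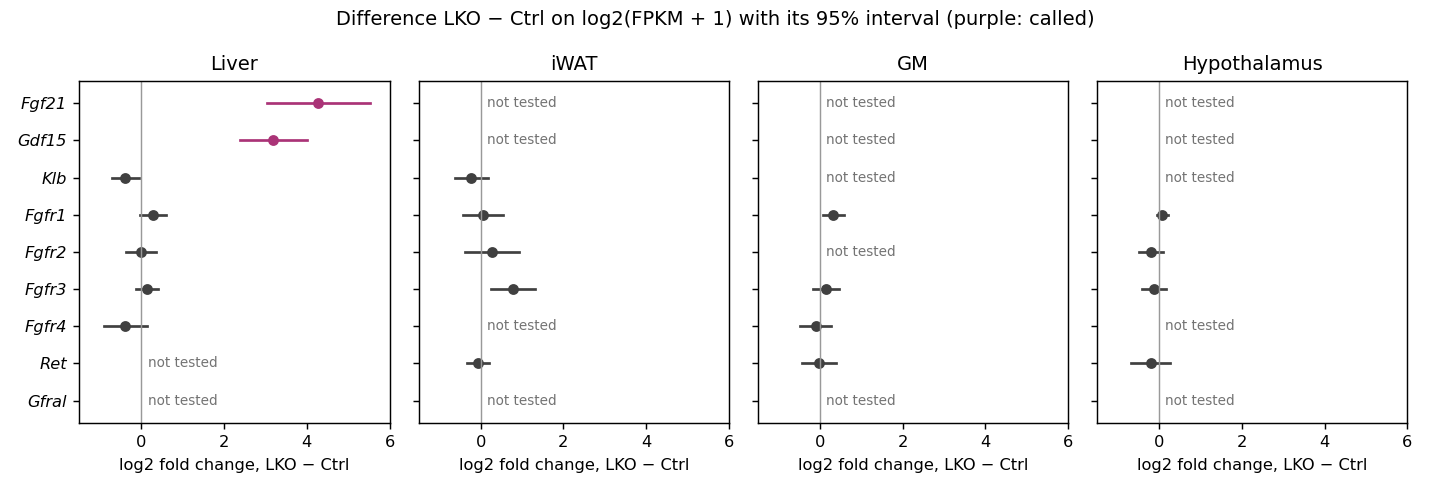
The difference LKO minus Ctrl of each member on log2(FPKM + 1), with its 95% interval from limma, in each tissue; purple marks called genes and "not tested" marks genes below the filter. The intervals of Fgf21 and Gdf15 in liver lie above 2, and every other interval lies between -1 and 1.5.

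Klb, which encodes the co-receptor that gives FGF21 its target cells, was an adipose and liver gene in these data. It was 30.6, 22.4 and 20.6 FPKM in Ctrl iWAT and 22, 17.4 and 22.8 FPKM in LKO iWAT. The groups overlapped, with the highest value in a Ctrl library and the lowest in an LKO library. The log2 difference was -0.22 with a 95% interval of -0.63 to 0.18 (limma, adjusted p = 0.57). Adipocyte markers summed to 42547 to 47050 FPKM in Ctrl iWAT and to 39811 to 49352 FPKM in LKO iWAT, so the sums overlapped. Their mean on log2(FPKM + 1), in which all 6 markers weigh alike, was 11.23 to 11.39 in Ctrl and 11.12 to 11.22 in LKO, without overlap. Without the library Ctrl 1 the difference in Klb was -0.06, and without LKO 2 it was -0.11; these were the 2 libraries with the most myofibre markers, at 466 and 727 FPKM in sum against 30.7 to 87.1 FPKM in the other 4. The part of these markers in the Klb values was not tested.

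In liver, Klb was 6.50, 8.82 and 6.63 FPKM in Ctrl and 5.6, 4.86 and 5.50 FPKM in LKO. All LKO livers were below all Ctrl livers, with means of 7.32 ± 1.3 and 5.32 ± 0.40 FPKM (SD, n = 3). The log2 difference was -0.39 with a standard error of 0.14 (limma, adjusted p = 0.059), which was not a call. The scale mattered here, because the median log2 difference of all genes tested in liver was 0.33 in the deposited FPKM. When the libraries were rescaled by median ratios that median became -0.04, the difference in Klb became -0.77 and Klb was called (adjusted p = 0.014), and with quantile normalization it was -0.78 (adjusted p = 0.016). Summed hepatocyte markers ran from 55952 to 58714 FPKM in Ctrl and from 42216 to 67742 FPKM in LKO livers, while their mean on log2(FPKM + 1) was 11.89 to 11.93 in Ctrl and 11.34 to 11.88 in LKO, without overlap. Summed leukocyte markers ran from 97.1 to 101 FPKM in Ctrl and from 223 to 336 FPKM in LKO livers. Their part in the Klb value was not tested.

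In GM and hypothalamus Klb was low. In GM it was 0.225, 0.246 and 0.0495 FPKM in Ctrl and 0.228, 0.0255 and 0.0528 FPKM in LKO. The 3 libraries with more than 0.2 FPKM were those with the most adipocyte transcripts, with summed adipocyte markers of 653, 850 and 995 FPKM, against 292, 305 and 373 FPKM in the other 3. The part of fat tissue in these values was not tested. In hypothalamus Klb was 0.251, 0.185 and 0.233 FPKM in Ctrl and 0.311, 0.239 and 0.328 FPKM in LKO, with overlapping groups, and it was below the filter in both tissues.

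**Figure D3:**
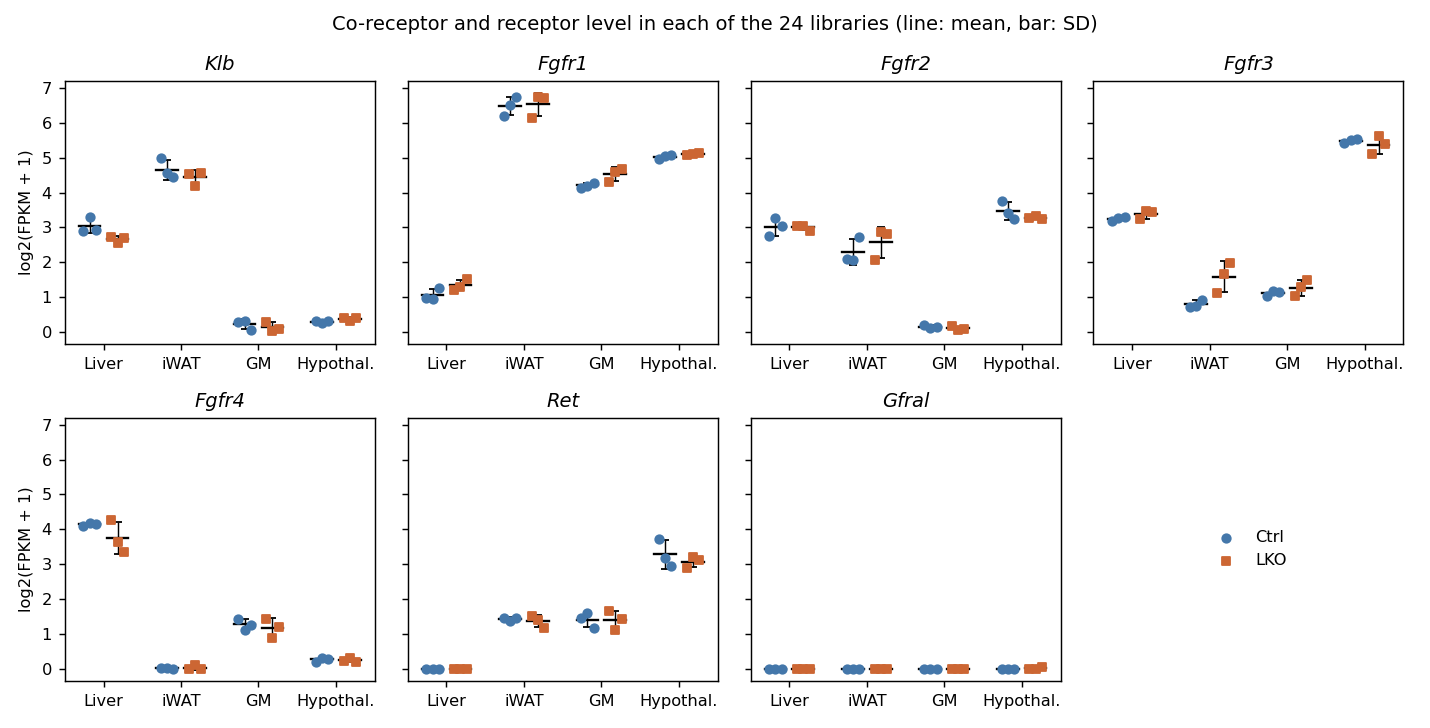
The co-receptor and receptor genes on log2(FPKM + 1) in each library, by tissue, with Ctrl as circles and LKO as squares; the horizontal line is the group mean and the bar its SD. Klb is high in iWAT and liver, Fgfr1 in iWAT, hypothalamus and GM, Fgfr3 in hypothalamus, Fgfr4 in liver and Ret in hypothalamus, and Gfral lies at 0 in 23 of 24 libraries.

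Among the 4 Ctrl tissues, all 7 members tested differed (limma F test over 15320 genes), as did 99.0% of genes, so the order of the levels is the more telling description. For Klb the order was iWAT (24.6 ± 5.3 FPKM), liver (7.32 ± 1.3), hypothalamus (0.223 ± 0.034) and GM (0.174 ± 0.108), and the last 2 did not differ (adjusted p = 0.70). For Fgfr1, the main partner of β-klotho in fat, it was iWAT (89.2 ± 16.2 FPKM), hypothalamus (31.7 ± 1.2), GM (17.4 ± 1.0) and liver (1.11 ± 0.25), with each neighbour called. The step from GM to hypothalamus kept its call in 1 of 3 other scalings. Fgfr2, used chiefly by paracrine FGFs, was highest in hypothalamus (10.2 ± 2.1 FPKM) and liver (7.15 ± 1.44), which were less than 1.5-fold apart on the tested scale (adjusted p = 0.040) and were called in 1 of 3 other scalings, then iWAT (4.03 ± 1.39) and GM (0.110 ± 0.031). Fgfr3, a receptor of astrocytes in the brain, was 44.0 ± 1.6 FPKM in hypothalamus, 8.52 ± 0.36 in liver, 1.17 ± 0.10 in GM and 0.747 ± 0.143 in iWAT, and GM and iWAT did not reach 1.5-fold on the tested scale, although the pair was called in 2 of 3 other scalings. Fgfr4, the hepatocyte partner of β-klotho, was 16.6 ± 0.5 FPKM in liver, 1.42 ± 0.27 in GM and 0.204 ± 0.048 in hypothalamus, and no iWAT library exceeded 0.0671 FPKM. Ret was 8.98 ± 2.92 FPKM in hypothalamus, 1.68 ± 0.10 in iWAT and 1.68 ± 0.38 in GM, the last 2 without a difference (adjusted p = 0.97). Gdf15 was highest in Ctrl liver (3.12 ± 0.49 FPKM), and the order of iWAT, GM and hypothalamus was not resolved at the 1.5-fold limit, with iWAT against hypothalamus called in 1 of 3 other scalings. All values are means ± SD with n = 3. The calls between pairs of tissues stand against 61.5% of genes called for liver against iWAT, 51.5% for liver against GM, 75.6% for liver against hypothalamus, 58.0% for iWAT against GM, 61.8% for iWAT against hypothalamus and 71.7% for GM against hypothalamus.

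Transcripts of Klb and Fgfr1 were thus both abundant in iWAT, while liver held Klb and Fgfr4 transcripts with little Fgfr1. Protein was not measured, nor whether the same cells held both transcripts. The ratio of Klb to Fgfr1 was 0.422, 0.25 and 0.197 in Ctrl iWAT and 0.315, 0.166 and 0.219 in LKO iWAT, with overlapping groups (exact two-sided permutation test, p = 0.6). In liver the same ratio was 6.59, 9.35 and 4.75 in Ctrl and 4.22, 3.31 and 2.98 in LKO. The LKO livers were below the Ctrl livers, by a log2 difference of -0.94 (exact two-sided permutation test, p = 0.1, the smallest possible). A ratio within a library does not depend on the scaling between libraries. The ratio of Klb to Fgfr4 in liver, chosen after its values were seen, was 0.405, 0.517 and 0.396 in Ctrl and 0.306, 0.426 and 0.60 in LKO, with overlapping groups (exact permutation p = 1).

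In liver the FGF receptors did not pass the test. Fgfr4 was 16.1, 17.1 and 16.7 FPKM in Ctrl and 18.3, 11.4 and 9.16 FPKM in LKO. The Ctrl livers agreed closely, while the LKO livers spread on both sides of them, the highest being LKO 1, the library with the most residual Crif1. The log2 difference was -0.39 with a standard error of 0.22 (limma, adjusted p = 0.18), and without LKO 1 it was -0.65 and called (adjusted p = 0.0016). With median-ratio scaling it was -0.80 (adjusted p = 0.080) and with quantile normalization -0.75 (adjusted p = 0.10), neither a call. The mean of the hepatocyte markers on log2(FPKM + 1) was 11.88, 11.64 and 11.34 in LKO 1, LKO 2 and LKO 3, against 11.89 to 11.93 in Ctrl. Their part in the Fgfr4 values was not tested in liver. Fgfr3 was 8.11, 8.62 and 8.81 FPKM in Ctrl livers and 8.38, 10.2 and 9.94 FPKM in LKO livers, a log2 difference of 0.14 with a 95% interval of -0.13 to 0.41, which turned to -0.26 with median-ratio scaling and -0.23 with quantile normalization. Fgfr2 was 5.70, 8.58 and 7.17 FPKM in Ctrl and 7.22, 7.31 and 6.48 FPKM in LKO, a difference of -0.01 (95% interval -0.37 to 0.34) that was 0.10 in TPM and -0.40 with median-ratio scaling. Fgfr1, low in liver, was 0.986, 0.943 and 1.40 FPKM in Ctrl and 1.33, 1.47 and 1.85 FPKM in LKO. Its difference was 0.27 (95% interval -0.03 to 0.58), and it was 0.02 with median-ratio scaling and -0.13 with quantile normalization. Summed markers of stellate cells and fibroblasts, all 7 above 0 in every liver, were 64.0 to 72.5 FPKM in Ctrl and 161 to 180 FPKM in LKO livers, and their part in the low Fgfr1 signal was not tested. Fgfr1 overlaps Gm16159 on the opposite strand, whose reads cannot be told apart from its own.

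In iWAT the largest change among the members was in Fgfr3, the least abundant of the 3 FGF receptors tested there. It was 0.639, 0.693 and 0.909 FPKM in Ctrl and 1.16, 2.15 and 2.96 FPKM in LKO. Every LKO library was above every Ctrl library, and none of the Ctrl libraries reached 1 FPKM, so the gene entered the test through the LKO libraries alone. With no filter on low values the log2 difference was 0.78 with a standard error of 0.22 (limma, unadjusted p = 0.013, adjusted p = 0.26), and with the filter the adjusted p was 0.19. It was called when all 24 libraries shared 1 estimate of the spread (adjusted p = 0.0061), in a fit that kept the filter. The interaction test, which compares this effect with those in the other tissues, gave an adjusted p = 0.026 for Fgfr3, and 0.0012 to 0.077 under the alternatives. The iWAT effect exceeded the liver effect by 0.64 (SE 0.23, adjusted p = 0.038). The F test lost its call with quantile normalization (adjusted p = 0.072) and when any of the libraries Ctrl 1 (0.058), Ctrl 2 (0.058), LKO 2 (0.064) or LKO 3 (0.077) of iWAT was left out. Keratins and milk genes, 6 epithelial markers of which Csn2 and Wap were at 0 in all iWAT libraries, summed to 0.04 to 0.33 FPKM in Ctrl and to 5.03, 7.28 and 0.23 FPKM in LKO 1, LKO 2 and LKO 3. Endothelial markers, all 5 above 0, summed to 110 to 129 FPKM in Ctrl and to 166, 177 and 219 FPKM in LKO 1, LKO 2 and LKO 3, and Schwann cell and nerve markers, all 6 above 0, to 265 to 350 FPKM in Ctrl and to 354, 405 and 409 FPKM in LKO. Hepatocyte markers summed to 14.4 to 25.8 FPKM in Ctrl and to 36.7, 53.5 and 54.0 FPKM in LKO, the choroid plexus list to 79.7 to 123 FPKM and to 142, 218 and 262 FPKM, and the oligodendrocyte list to 78.5 to 101 FPKM in Ctrl and 104 to 143 FPKM in LKO. These 5 of the 18 lists were apart between the groups, as Fgfr3 was. The part of any of these cell types in the Fgfr3 values was not tested.

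The other receptors in iWAT differed by less than the spread between libraries. Fgfr1 was 72.7, 89.7 and 105 FPKM in Ctrl and 69.8, 105 and 104 FPKM in LKO. Its log2 difference was 0.05 with a 95% interval of -0.43 to 0.53, and its sign turned when Ctrl 1, LKO 2 or LKO 3 was left out. Fgfr2 was 3.28, 3.18 and 5.64 FPKM in Ctrl and 3.15, 6.24 and 6.00 FPKM in LKO, a difference of 0.28 (95% interval -0.37 to 0.92). Fgfr4 was listed at 0 in 3 of the 6 libraries and was not tested.

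In GM the 3 LKO libraries held more Fgfr1 than the 3 Ctrl libraries. The values were 16.5, 17.3 and 18.5 FPKM in Ctrl and 18.6, 23.3 and 24.8 FPKM in LKO, so the lowest LKO library lay just above the highest Ctrl library. The log2 difference was 0.32 with a standard error of 0.11 (limma, unadjusted p = 0.021, adjusted p = 0.64), under the 1.5-fold limit. Over the 7 stellate cell and fibroblast markers, all above 0 in GM, the mean on log2(FPKM + 1) was 4.13 to 4.15 in Ctrl and 4.30 to 4.39 in LKO, without overlap, while their sums of 1258 to 1338 and 1305 to 1353 FPKM overlapped. Schwann cell and nerve markers summed to 119.3 to 133.1 FPKM in Ctrl and 133.8 to 163.2 FPKM in LKO, without overlap, while their mean on log2(FPKM + 1) overlapped. The part of either list in the Fgfr1 values was not tested. Fgfr3 was 1.06, 1.24 and 1.22 FPKM in Ctrl and 1.04, 1.45 and 1.79 FPKM in LKO. Fgfr4 was 1.70, 1.17 and 1.39 FPKM in Ctrl and 1.69, 0.829 and 1.3 FPKM in LKO. Both overlapped, with differences of 0.15 (95% interval -0.16 to 0.46) and -0.10 (-0.48 to 0.28). Hepatocyte markers in the same GM libraries summed to 248, 19.0 and 189 FPKM in Ctrl and to 90.8, 11.2 and 32.3 FPKM in LKO, so that the library lowest in Fgfr4, LKO 2, was also lowest in these markers and Ctrl 1 highest in both. Their part in the Fgfr4 values was not tested. Fgfr2 stayed between 0.0468 and 0.145 FPKM and was not tested.

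In hypothalamus no FGF receptor passed the test, and the groups of all 4 overlapped. Fgfr1 was 30.4, 32.2 and 32.6 FPKM in Ctrl and 32.5, 33.5 and 34.4 FPKM in LKO, with a log2 difference of 0.07 and a 95% interval of -0.06 to 0.21. Fgfr3 was 42.1, 44.7 and 45.2 FPKM in Ctrl and 33.4, 48.1 and 40.7 FPKM in LKO, with a difference of -0.12 (95% interval -0.41 to 0.17). Fgfr2 was 12.5, 9.70 and 8.46 FPKM in Ctrl and 8.61, 8.99 and 8.53 FPKM in LKO, with a difference of -0.19 (95% interval -0.49 to 0.10). Fgfr4 ran from 0.146 to 0.247 FPKM and was not tested. Astrocyte markers summed to 878 to 889 FPKM in Ctrl and 809 to 863 FPKM in LKO hypothalamus, endothelial markers to 23.3 to 27.1 and 20.0 to 22.5 FPKM, and pituitary markers to 7.22 to 47.4 and 123 to 574 FPKM, each without overlap. Their part in the receptor values was not tested.

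The make-up of the FGF receptor pool, taken as the share of each gene in the summed FPKM of the 4, set the tissues apart. In iWAT, Fgfr1 made up 94.9 ± 0.9% of the pool in Ctrl and 92.9 ± 1.1% in LKO (SD, n = 3). In GM its share was 86.6 ± 1.3% and 88.8 ± 2.1%. In Ctrl liver, Fgfr4 held 49.9 ± 1.9%, Fgfr3 25.5 ± 0.9%, Fgfr2 21.3 ± 3.0% and Fgfr1 3.32 ± 0.71%. In LKO liver the Fgfr4 share was 41.0 ± 9.7%, with values from 33.4% to 51.9% that overlapped the 48.5% to 52.0% of Ctrl (exact two-sided permutation test, p = 0.3). In hypothalamus, Fgfr3 held 51.1 ± 1.4% in Ctrl and 48.8 ± 4.1% in LKO, and Fgfr1 36.8 ± 1.1% and 40.5 ± 3.3%. The only share without overlap was that of Fgfr3 in iWAT, which was 0.796 ± 0.050% in Ctrl and 2.02 ± 0.53% in LKO (exact two-sided permutation test, p = 0.1, the smallest possible). Of the 20 exact tests on shares and ratios 3 reached this p, and the smallest p after Benjamini-Hochberg adjustment over the 20 was 0.6.

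**Figure D4:**
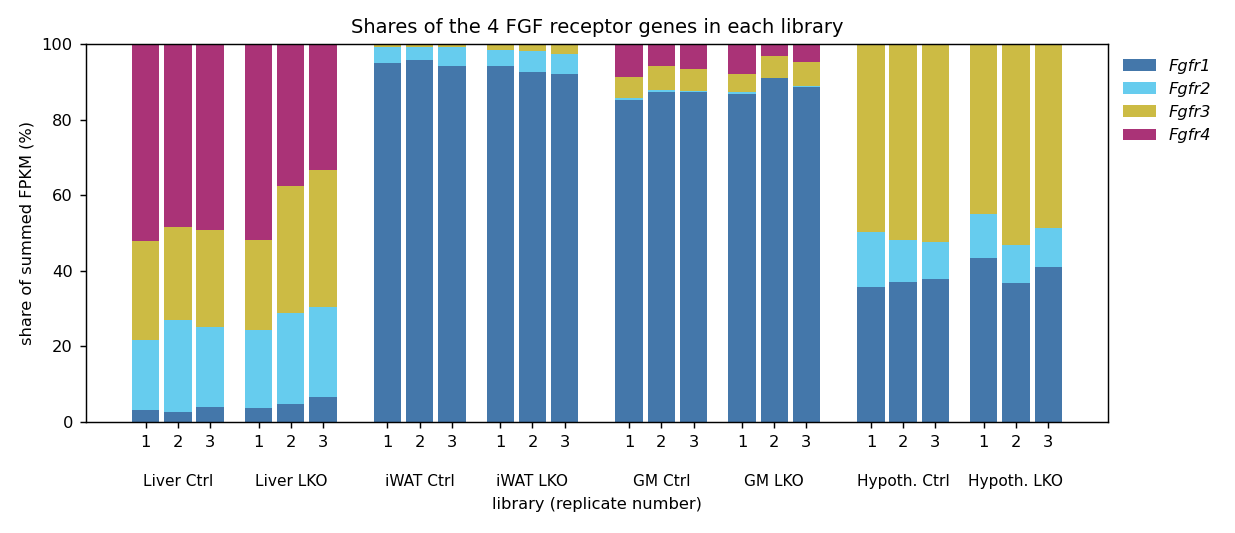
Stacked bars give, for each library, the percent of the summed FPKM of Fgfr1, Fgfr2, Fgfr3 and Fgfr4 taken by each gene; replicate numbers are under the bars. Fgfr1 fills more than 85% of every iWAT and GM bar, liver is led by Fgfr4 except in LKO 3, where Fgfr3 has the larger share, and hypothalamus is divided mainly between Fgfr3 and Fgfr1.

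Gfral, the ligand-binding receptor of GDF15, was listed at 0 in 23 of the 24 libraries and at 0.0378 FPKM in hypothalamus LKO 3. It was not tested. In 20 of the 24 libraries its row carried a different placeholder in the name field, whose meaning the sources used here do not give, so a gene without reads and a failed estimate cannot be told apart, and the values say only that it is listed at 0. The hypothalamus libraries held hardly any hindbrain tissue by the markers used. The 6 Hox genes Hoxa2, Hoxb2, Hoxa3, Hoxb3, Hoxa4 and Hoxb4 did not exceed 0.086 FPKM in any of these libraries, and Hoxb2 was at 0 in all 6. Calcr, a calcitonin receptor gene that is also expressed in the hypothalamus, was 8.59 to 10.04 FPKM in Ctrl and 11.24 to 12.02 FPKM in LKO. The 9 markers of hypothalamic neurons summed to 2662 to 3239 FPKM in Ctrl and 3157 to 3312 FPKM in LKO.

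Ret, which signals for GFRAL and for the receptors of the GDNF family alike, was listed above 0 in 3 of the 4 tissues. In hypothalamus it was 12.3, 8.02 and 6.67 FPKM in Ctrl and 6.44, 8.24 and 7.68 FPKM in LKO. The groups overlapped, with a log2 difference of -0.21 and a 95% interval of -0.67 to 0.26 (limma, adjusted p = 1.00). The pituitary list of 5 markers summed to 7.22 to 47.4 FPKM in Ctrl and 123 to 574 FPKM in LKO hypothalamus, and its part in these values was not tested. In iWAT, Ret was 1.74, 1.56 and 1.75 FPKM in Ctrl and 1.84, 1.65 and 1.27 FPKM in LKO (log2 difference -0.06, 95% interval -0.33 to 0.21). In GM it was 1.76, 2.0 and 1.27 FPKM in Ctrl and 2.14, 1.14 and 1.68 FPKM in LKO (-0.02, -0.42 to 0.38). All 6 liver libraries listed Ret at 0, in 4 of them with the same placeholder as Gfral, so that the limit given for Gfral holds for Ret in liver too. Of its 8 other known partners and ligands in the GDNF family and the adhesion molecule Ncam1, 1 gene was tested in liver, the GDNF receptor Gfra1, at 32.5 ± 4.9 FPKM in Ctrl and 27.8 ± 13.3 FPKM in LKO (adjusted p = 0.45).

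The genes around the receptors were taken from lists, which are described by counts beside 27.4% of genes called in liver and a median log2 difference of 0.33 over all genes tested. Beside every change in liver stand the summed markers of other cell types, which were higher in all LKO than in all Ctrl livers: 161 to 180 FPKM against 64.0 to 72.5 FPKM for stellate cells and fibroblasts, 223 to 336 FPKM against 97.1 to 101 FPKM for leukocytes, 37.6 to 62.8 FPKM against 30.2 to 34.4 FPKM for endothelium and 41.6 to 89.0 FPKM against 30.7 to 31.8 FPKM for cholangiocytes. Their part in the list genes was not tested. Of the relay between FGF receptors and ERK, 4 of 19 genes tested rose in LKO liver and none fell, with a median of 0.34; Nras rose by 0.91 (adjusted p = 0.0046), Mapk3, which encodes ERK1, by 0.80 (adjusted p = 0.0095) and Ptpn11, which encodes the phosphatase SHP2, by 0.66 (adjusted p = 0.018). With median-ratio scaling no gene of this list was called higher and 1 was called lower. Nras (0.53, limma adjusted p = 0.0054) and Mapk3 (0.37, adjusted p = 0.020) were then still higher but under the fold limit, and Ptpn11 was at 0.23 (adjusted p = 0.088). Of the feedback and target genes of FGF and ERK signalling, 7 of 13 rose and 1 fell, with a median of 0.85, and 5 rose and 1 fell with median-ratio scaling. Of the 13, 3 had no Ctrl liver at 1 FPKM and so entered through LKO alone; without them 5 rose and 1 fell, with a median of 0.65. Myc, a growth regulator, rose by 2.86 (adjusted p = 0.013), Egr1, an immediate early transcription factor, by 2.82 (adjusted p = 0.00035) and Ccnd1, which encodes cyclin D1, by 2.69 (adjusted p = 0.00039). The gene that fell was Phlda1, by 1.43 (adjusted p = 0.016), named after its values were seen. These genes respond to many signals besides FGFs.

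Among 20 listed regulators of Fgf21 or Gdf15 transcription, 10 rose and 1, Mlxipl, fell in LKO liver (Mlxipl by 0.65, adjusted p = 0.0038, named after its values were seen), with a median of 0.71; with median-ratio scaling 5 rose and 2 fell. Trib3, a pseudokinase induced by ATF4, was 1.51 ± 0.48 FPKM in Ctrl and 95.5 ± 96.1 FPKM in LKO, a log2 difference of 4.51 (adjusted p = 0.0098). Atf3, a stress-induced transcription factor, was 0.290 ± 0.065 and 29.3 ± 24.8 FPKM (4.19, adjusted p = 0.0027, or 0.0087 with no filter), and Ddit3, which encodes CHOP, was 7.75 ± 0.44 and 107 ± 101 FPKM (3.05, adjusted p = 0.019). Ddit3 overlaps Mars, whose reads may add to it. Atf3 entered the test through the LKO livers alone, and 9 rose without it. For these 3 the SD in LKO was close to the mean, so the size varied widely between the LKO livers while every LKO liver was above every Ctrl liver.

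Of 8 genes tested that modify the ligands or their surroundings, 2 rose, a share near that of all genes: Sulf2, an extracellular sulfatase that trims heparan sulfate, by 1.32 (adjusted p = 0.0049) and Mmp2, a matrix protease, by 1.04 (adjusted p = 0.0043, or 0.011 with no filter), and both also rose with median-ratio scaling. Mmp2, which stromal cells express, entered the test through the LKO livers alone. Mmp14, a membrane protease, was 11.2 ± 0.4 FPKM in Ctrl and 16.4 ± 1.9 FPKM in LKO, under the fold limit. Fgf1, the only other FGF ligand tested in liver, fell by 1.71 (26.2 ± 1.3 to 7.48 ± 2.24 FPKM, adjusted p = 0.0015). Fgfrl1, an FGF receptor without a kinase domain, and Glg1, a Golgi FGF-binding protein, were not called, at 9.5 ± 0.31 and 10.2 ± 1.3 FPKM and at 6.99 ± 0.48 and 10.7 ± 1.5 FPKM in Ctrl and LKO. The bile acid genes listed beside FGFR4 and β-klotho moved mostly downward: 1 of 7 rose and 5 fell, with a median of -1.28, and with median-ratio scaling 0 rose and 5 fell. The list holds genes of bile acid synthesis, transport and regulation and is not a readout of that receptor pair. Hepatocyte markers had a mean on log2(FPKM + 1) of 11.89 to 11.93 in Ctrl and 11.34 to 11.88 in LKO livers, without overlap, while their sums overlapped. Their part in these values was not tested. Cyp7b1, of the alternative pathway, fell by 2.79 (adjusted p = 0.0055), Cyp8b1, which directs cholic acid synthesis, by 1.49 (adjusted p = 0.0032) and Nr0b2, which encodes the repressor SHP, by 1.39 (adjusted p = 0.045). The gene that rose, named here after its values were seen, was Cyp7a1, the rate-limiting enzyme of bile acid synthesis, at 11.3 ± 0.97 FPKM in Ctrl and 21.3 ± 4.5 FPKM in LKO (0.84, adjusted p = 0.0079; 0.42 and 0.070 with median-ratio scaling). Of the FGF21 response genes of adipose tissue, 6 could be tested in liver: 2 rose and 1 fell, and 1 rose and 1 fell with median-ratio scaling. Elovl3, a fatty acid elongase, fell by 3.92 (adjusted p = 0.0010), Lpl, a lipoprotein lipase, rose by 2.09 (adjusted p = 0.0051), and Slc2a1, a glucose transporter, was 4.67 ± 0.51 FPKM in Ctrl and 11.5 ± 7.7 FPKM in LKO (adjusted p = 0.066). All calls are by limma.

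In iWAT, where Klb and Fgfr1 transcripts were both abundant, no gene of any list was called by limma, as no gene of the tissue was. Beside the list values stand the endothelial markers, at 110 to 129 FPKM in Ctrl and 166 to 219 FPKM in LKO, and the Schwann cell and nerve markers, at 265 to 350 and 354 to 409 FPKM, whose part in them was not tested. With an unadjusted p under 0.05 and the fold limit, which 3.25% of all genes passed, 3 of 17 feedback and target genes were higher and none lower: Dusp4 (4.85 ± 1.58 FPKM in Ctrl and 9.42 ± 3.06 in LKO, adjusted p = 0.27), Dusp6 (8.83 ± 2.32 and 15.1 ± 3.1, adjusted p = 0.21), both ERK phosphatases, and Egr1 (4.53 ± 1.58 and 7.83 ± 2.13, adjusted p = 0.26). The median of that list was 0.37, where the median over all genes tested in iWAT was -0.01. Of the 12 FGF21 response genes, 1 passed the unadjusted limit, Elovl3 (0.352 ± 0.306 and 2.39 ± 1.44 FPKM, adjusted p = 0.17), and the list median was 0.46. Elovl3 entered the test through the LKO libraries alone (adjusted p = 0.25 with no filter); without it 0 genes of the list passed and the median was 0.22. Ucp1, the uncoupling protein of thermogenic fat, was 39.2 ± 39.1 FPKM in Ctrl and 119 ± 86 FPKM in LKO (adjusted p = 0.42), and Cpt1b, a mitochondrial carnitine transferase, was 7.71 ± 6.23 and 17.3 ± 6.7 FPKM (adjusted p = 0.39), both with overlapping groups. Their SDs show how far single libraries set these means. Lctl, a further klotho, was 9.97 ± 3.31 FPKM in Ctrl and 24.7 ± 17.2 FPKM in LKO (adjusted p = 0.33), while Fgfrl1 was 91.0 ± 13.9 and 104 ± 5 FPKM and Glg1 17.1 ± 1.2 and 16.7 ± 1.1 FPKM. Fgf18, a paracrine FGF, was 2.58 ± 0.77 and 0.942 ± 0.235 FPKM (adjusted p = 0.13), and Fgf2 was 4.74 ± 0.54 and 3.46 ± 0.09 FPKM (adjusted p = 0.16), each without overlap between groups, and Fgf1 was 3.93 ± 1.04 and 5.24 ± 1.44 FPKM with overlap. Of the transcription regulators, 4 of 20 passed the unadjusted limit, all higher, led by the nuclear receptors Nr1d1 (30.3 ± 12.5 and 79.0 ± 20.4 FPKM, adjusted p = 0.16) and Thrb (3.84 ± 0.75 and 9.16 ± 0.38 FPKM, adjusted p = 0.082). The relay list had a median of -0.07 and none of its 20 genes passed; the kinase gene Rps6ka1 was 7.04 ± 1.97 and 5.48 ± 0.61 FPKM (adjusted p = 0.49) and the phospholipase gene Plcg1 18.6 ± 1.2 and 22.5 ± 2.6 FPKM (adjusted p = 0.30). The processing list had a median of -0.07, and its largest difference was that of Mmp14, 76.8 ± 20.3 and 52.5 ± 4.6 FPKM (adjusted p = 0.27), ahead of the peptidase gene Dpp4 (24.1 ± 5.2 and 16.8 ± 2.4 FPKM, adjusted p = 0.28) and the convertase gene Pcsk6 (44.0 ± 1.2 and 31.7 ± 0.4 FPKM, adjusted p = 0.088). The bile acid gene tested there, Cyp27a1, was 25.3 ± 2.2 and 24.3 ± 3.8 FPKM. For the GDNF-family receptors the means were 6.72 ± 1.75 and 4.86 ± 0.64 FPKM for Gfra2 (adjusted p = 0.40), 0.826 ± 0.298 and 1.21 ± 0.27 FPKM for Gfra1, and 5.16 ± 0.29 and 4.72 ± 0.52 FPKM for Gfra4.

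In GM and hypothalamus no list gene was called by limma either. The largest difference over all lists in GM was that of Atf3, 2.80 ± 0.72 FPKM in Ctrl and 11.3 ± 12.2 FPKM in LKO (adjusted p = 0.76). In hypothalamus it was that of Fos, an immediate early gene, which was 27.9 ± 1.5 FPKM in Ctrl and 17.1 ± 1.5 FPKM in LKO without overlap (adjusted p = 0.13). The astrocyte, endothelial and pituitary sums given with the FGF receptors separated the same hypothalamus libraries, and their part in the Fos values was not tested. All values in the lists are means ± SD with n = 3.

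Over the 24 libraries the genes whose levels ran most like each member were found among 15848 other genes by Pearson's r on log2(FPKM + 1). The libraries of a tissue share most of their expression, so these correlations mainly describe tissue patterns and carry no test. For Fgf21 and Gdf15 the LKO livers stood far above the Ctrl livers, so that difference is part of the pattern too. Fgf21 ran closest to Cyp2c39 (r = 0.988), Sectm1a (0.981) and Gm3776 (0.980), and Gdf15 to Gsta1 (0.988), Cyp2a22 (0.987) and Cyp4a31 (0.987), all highest in liver. Klb ran closest to Cebpa (0.988), which encodes a C/EBP factor of adipocytes and hepatocytes, then Abhd15 (0.984) and Gm5617 (0.984). Fgfr1 ran closest to Slc27a1 (0.991), a fatty acid transporter gene, Ltbp3 (0.990) and Timp4 (0.988). Fgfr2 ran closest to Nxt2, Fndc3a and Fam134a (0.983 to 0.984), and Fgfr3 to Hip1r (0.988), Shank2 (0.987) and Prkcz (0.986). Fgfr4 ran closest to the liver genes Hpn (0.990) and Fgb (0.983), which encode hepsin and fibrinogen β, and to Herpud1 (0.982), and Ret to Ptprs (0.986), Gm14295 (0.986) and Ccdc85a (0.985). Gfral was too low for the comparison.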

How the data were processed

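Total RNA was extracted with Trizol, libraries were made with the TruSeq RNA v2 kit, which does not mark strand, and sequenced as paired ends on a HiSeq4000. The submitters' processing notes name FastQC 0.11.5, Trimmomatic 0.32, HISAT2 2.0.5, Bowtie2 2.2.6, STAR 2.5.2b and StringTie 1.3.3b and the build mm10; their roles and order are not given in the sources used here. The authors deposited FPKM for all genes in a joined table, and FPKM, TPM and signal as mean coverage in a table per library. The joined table gave the main values; 99.6% to 99.7% of genes had the same FPKM in both. Gene spans are those of the deposited tables on mm10, and promoter windows come from RefSeq on GRCm38.p6, the same assembly.

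The ratio of coverage to FPKM put the libraries at 4.45 to 8.09 gigabases (median 5.19). The files hold no counts, so no count test was run and no counting interval is given. Groups follow the labels. Within each tissue, limma 3.58.1 in R 4.3.3 (lmFit, eBayes with trend) was fitted to log2(FPKM + 1) of genes that reached 1 FPKM in 3 or more of the 6 libraries, with Benjamini-Hochberg adjustment over all genes tested; a call needed an adjusted p under 0.05 and at least 1.5-fold. Interactions used all 24 libraries, tissue order the 12 Ctrl libraries. Shares and ratios were compared by exact permutation tests in Python 3.11.15 with scipy 1.17.1. The fits were tested on simulated data. Named genes were the members and, from each list, up to 3 tested genes with the largest change in liver and iWAT, the 1 with the largest change over all lists in GM and hypothalamus, and the 3 best correlated genes of each member; a few items are not reported here. The members and lists were chosen with earlier results of these data known. Alternatives changed the pseudocount, filter, unit, scaling, variance, libraries in the fit and pairing, and left out each library. Lists were also counted without genes that met the filter through 1 group alone and with no filter, chosen after the data were seen.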

Additional observations from a re-analysis of the deposited data

Results flagged for a closer look

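The LKO effect of 3 members differed between the 4 tissues by the F test over the interaction terms of tissue and genotype in limma. The same test passed 33.5% of all 15849 genes tested, so the count by itself is not a result about the members. For Fgf21 the adjusted p was 2.28e-06 and for Gdf15 it was 2.36e-06, with higher levels in 3 of 3 LKO livers than in any Ctrl liver and levels under 1 FPKM in every library of the other tissues. Fgf21 entered this fit mainly through the LKO livers; with no filter the values were 6.95e-06 and 7.08e-06, and under all alternatives these values ran from 6.94e-10 to 6.98e-05 and from 9.90e-10 to 0.00063. The fit takes 1 spread per gene from all 24 libraries, so for both ligands these values draw precision from levels near 0 outside the liver. For Fgfr3 the adjusted p of the F test was 0.026, with the effect in iWAT above that in liver by 0.64 on log2(FPKM + 1). This adjusted p ran from 0.0012 to 0.077 under the alternatives, and the call was lost in 5 of them. In iWAT 3 of 3 LKO libraries were above every Ctrl library for Fgfr3. It met the iWAT filter through the LKO libraries alone, and the groups of 20.8% of genes tested there did not overlap, so this is not support. Groups held 3 libraries each, too few for a test of single outlying libraries.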

How the results depend on the processing

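In liver, Fgf21 and Gdf15 stayed called in each of 15 alternatives, with log2 differences of 3.78 to 5.41 and 2.80 to 3.63. Klb was called lower in liver with median-ratio scaling (-0.77) and quantile normalization (-0.78), and Fgfr4 without LKO 1 (-0.65). In iWAT the number of members called was 0 under 14 alternatives and 1, Fgfr3 at 0.78, with all 24 libraries in 1 fit. The count of members that differ between Ctrl tissues was 7, and 4 with a mean of at least 5 FPKM, which left fewer members to test. Small differences turned direction: in liver Fgfr1 with quantile normalization (-0.13), Fgfr2 with TPM (0.10) and without single libraries (-0.15 to 0.11; without Ctrl 2 0.11, without LKO 3 0.04), and Fgfr3 with median-ratio scaling (-0.26) and quantile normalization (-0.23). In the other tissues it was single libraries that turned them: in iWAT Fgfr1 (-0.085 to 0.25; without Ctrl 1 -0.085, without LKO 2 -0.05, without LKO 3 -0.04) and Ret (-0.13 to 0.031; 0.031 without LKO 3), in GM Fgfr4 (-0.23 to 0.046; 0.046 without LKO 2) and Ret (-0.15 to 0.12; 0.01 without Ctrl 1, 0.07 without Ctrl 2, 0.12 without LKO 2), and in hypothalamus Fgfr3 (-0.249 to 0.0084; 0.0084 without LKO 1) and Ret (-0.377 to 0.018; 0.018 without Ctrl 1). In none of these turned values was the gene called, and the cause was not tested. With no filter the lists in liver gave the same counts of called genes, except that 4 rather than 5 bile acid genes fell. The interaction of tissue and genotype passed for Klb with median-ratio scaling (adjusted p = 0.028) and for Fgfr4 without liver LKO 1 (adjusted p = 0.0083).

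Same-numbered Ctrl and LKO libraries were not shown to be paired: the correlations of their deviations ran from 0.03 to 0.15 in liver, -0.12 to 0.30 in iWAT, 0.05 to 0.35 in GM and -0.14 to 0.14 in hypothalamus. With the replicate block 2 members were called in liver, with Fgf21 at 4.28 (adjusted p = 0.00052) and Gdf15 at 3.19 (adjusted p = 0.0017), and 0 in each other tissue, and Klb in iWAT stayed at -0.22 (adjusted p = 0.43). The block changed no other call. Without counts, genes near 0 FPKM cannot be ranked.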
